A study of Rattus norvegicus with 48 samples.

Results

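Dbp, listed in the deposited table as ENSRNOG00000021027, and the gene ENSRNOG00000042717 were followed through every library of a study of exercise timing in the fat of male adolescent rats. They are 2 of the 23481 genes in the table. Dbp was taken as an output gene of the circadian clock, and ENSRNOG00000042717 was selected on a measured value, a level over 20-fold lower at the late than at the early active phase in both fat depots. The difference between the phases is therefore described here without a test for either gene. The symbol Dbp came with the choice of the gene, since the table gives IDs alone and the RefSeq table at hand carries 0 Ensembl IDs. ENSRNOG00000042717 was paired with no symbol and is called by its ID.

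RNA was measured in visceral adipose tissue (VAT) and subcutaneous adipose tissue (SAT). The groups were late active phase exercise (LAE) and late active phase control (LAC), at zeitgeber time 23, and early active phase exercise (EAE) and early active phase control (EAC), at zeitgeber time 13, where zeitgeber time counts the hours after lights on. Controls were sedentary rats. Each group held 6 rats. Tissue came from rats at postnatal day 61, when 24 h had passed since their last session, and 48 libraries from 24 rats were read. The labels name no strain, and no allele or drug. Because no symbols were at hand for the other genes, the labelled tissues could not be checked against fat cell markers here. Whole fat was sequenced, so fewer cells of a type and less RNA per cell cannot be told apart.

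The circadian clock is a feedback loop in which the activators BMAL1 and CLOCK drive the transcription of their own repressors and of output genes through sequences called E-boxes. Dbp (D-box binding protein) is such an output. It encodes a transcription factor of the PAR bZIP family that binds D-box sequences and so passes the daily rhythm on to other genes, and in rodents its RNA cycles steeply in liver, fat and other tissues. Rats are active in the dark, so both collection times fall in the part of the day when they move and eat.

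The 250 bases before the annotated start of Dbp are shown because this is the stretch next to the start of the gene that the results turn on. The RefSeq sequence lies at chr1:105312006-105312255 on the plus strand of GRCr8, a later build than the rn6 named for the deposited counts, and it was matched by symbol. It was searched on both strands for CACGTG and CACGTT (an E-box and a variant of it), for TTATGTAA (a D-box) and for AGGTCA (a core sequence bound by the ROR and REV-ERB receptors), and since none of these letters was found, no base is in capitals:
Dbp: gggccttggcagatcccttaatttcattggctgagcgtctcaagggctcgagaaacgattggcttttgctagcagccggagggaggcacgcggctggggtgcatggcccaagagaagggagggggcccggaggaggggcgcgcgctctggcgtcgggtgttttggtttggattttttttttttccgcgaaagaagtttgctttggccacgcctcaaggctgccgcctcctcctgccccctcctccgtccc
Of 33469 rat promoters of the same length, 5.59% held CACGTG, 4.07% CACGTT, 0.828% TTATGTAA and 14.1% AGGTCA. A missing match says only that these letters are not in this window. The stretch is 61.2% G and C, against a median of 51.2% over those promoters.

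The libraries held between 13163675 and 17890033 estimated counts. The 4 that stood apart from their depot, called atypical below, were VAT early exercise replicate 3, VAT early control replicate 5, and SAT late exercise replicates 4 and 6. The median Spearman correlation of each with the rest of its depot was 0.95 and 0.957 in VAT, against 0.978 to 0.985 in the other 22, and 0.832 and 0.848 in SAT, against 0.957 to 0.981 in the other 22. Results that rest on them are given with and without them.

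Dbp was far lower in late than in early rats in both depots and with or without exercise. Levels are in CPM, counts relative to the library total scaled with TMM factors over all 48 libraries. In VAT of exercised rats the late libraries ran from 7.08 through a median of 9.19 to 11.5 CPM, against early libraries from 147 through 186 to 221 CPM. In VAT of sedentary rats the late libraries ran from 6.62 through 9.02 to 12.6 CPM, against early libraries from 118 through 155 to 228 CPM. The highest late library thus stayed well under the lowest early one in either activity.

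In SAT of exercised rats Dbp ran from 7.81 through a median of 14.8 to 20.6 CPM late, against 158 through 194 to 235 CPM early. In SAT of sedentary rats it ran from 9.32 through 10.1 to 12.7 CPM late, against 135 through 163 to 246 CPM early. No late library overlapped with an early one in SAT either. The narrowest gap was in SAT of exercised rats, where the lowest early library was 7.65 times the highest late one, and the widest in VAT of exercised rats, at 12.7 times.

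As means, Dbp stood at 9.04 ± 1.68 CPM late and 184 ± 27.2 CPM early in VAT of exercised rats (SD, n = 6 each), a ratio of early to late of 20.3. The ratio was 18.2 in VAT of sedentary rats (9.26 ± 1.95 CPM late, 169 ± 45.7 CPM early). It was 13.4 in SAT of exercised rats (14.5 ± 4.46 CPM late, 194 ± 31.5 CPM early) and 17 in SAT of sedentary rats (10.6 ± 1.26 CPM late, 180 ± 43 CPM early). The fitted log2 changes, late minus early, were -4.36 ± 0.179 and -4.19 ± 0.177 in VAT of exercised and sedentary rats, and -3.75 ± 0.198 and -4.09 ± 0.202 in SAT (standard errors, edgeR). The smallest of the ratios involves the atypical SAT pair. Without it, late exercise averaged 12.2 ± 3.37 CPM (SD, n = 4), with a ratio of 15.9.

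ENSRNOG00000042717 showed the same division of the libraries at a much lower count. In VAT of exercised rats its late libraries ran from 0.0662 through a median of 0.338 to 0.555 CPM, against early libraries from 5.03 through 9.51 to 13.9 CPM. In VAT of sedentary rats they ran from 0.203 through 0.445 to 0.494 CPM late, against 5.28 through 7.7 to 16.4 CPM early. In both, every late library lay below every early one.

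In SAT of exercised rats ENSRNOG00000042717 ran from 0.132 through a median of 0.563 to 0.925 CPM late, against 5.98 through 8.16 to 12.5 CPM early. In SAT of sedentary rats it ran from 0.0616 through 0.371 to 0.508 CPM late, against 4.99 through 8.48 to 14 CPM early. The groups did not overlap in SAT, where the lowest early library was 6.47 times the highest late one in exercised rats and 9.82 times in sedentary rats.

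**Figure D1:**
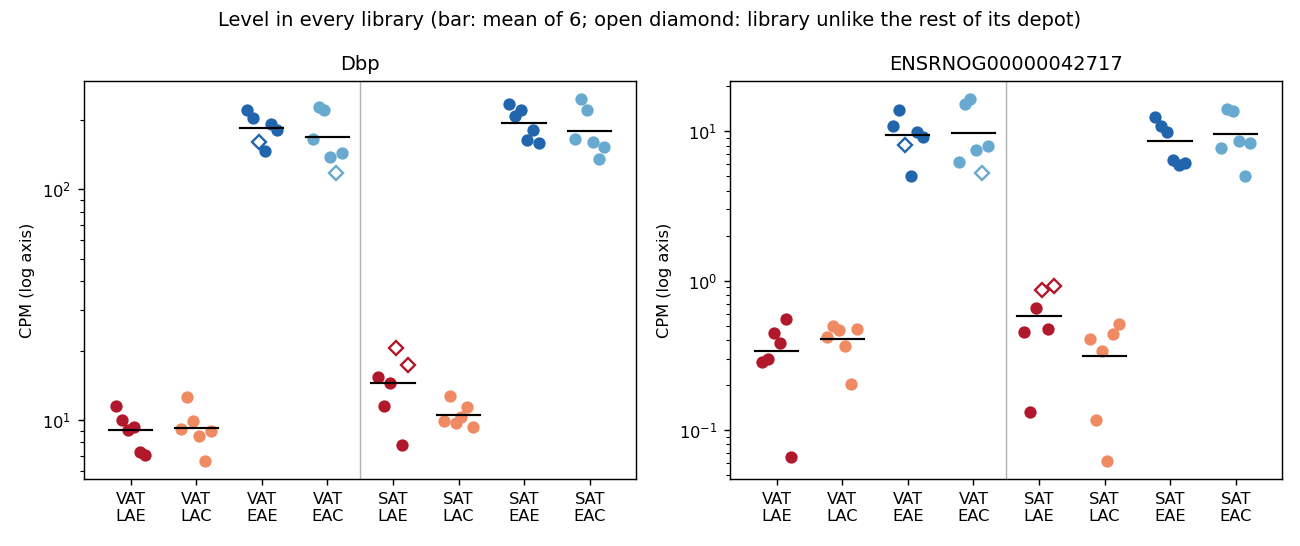
CPM (log axis) of Dbp and of ENSRNOG00000042717 in each of the 48 libraries by depot and group. Points are libraries, bars the mean of 6, and open diamonds the 4 atypical libraries. All late libraries lie below all early ones of the same depot and activity, and the 2 open diamonds of SAT late exercise are the highest late values of both genes.

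Its mean in VAT was 0.337 ± 0.166 CPM late and 9.5 ± 2.97 CPM early in exercised rats, and 0.405 ± 0.109 CPM late and 9.76 ± 4.81 CPM early in sedentary rats (SD, n = 6 each), with ratios of early to late of 28.2 and 24.1. In SAT it was 0.583 ± 0.294 CPM late and 8.65 ± 2.83 CPM early in exercised rats, and 0.311 ± 0.181 CPM late and 9.56 ± 3.54 CPM early in sedentary rats, with ratios of 14.8 and 30.7. The fall by which the gene was chosen was therefore above 20-fold in 3 of the 4 comparisons of means with all libraries. Without the atypical SAT pair, the late exercise mean was 0.428 ± 0.216 CPM (SD, n = 4) and the ratio 20.2. The fitted log2 changes, late minus early, were -4.80 ± 0.364 and -4.57 ± 0.353 in VAT of exercised and sedentary rats, and -3.86 ± 0.408 and -4.91 ± 0.436 in SAT (standard errors, edgeR).

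Set among all genes tested in each depot, ordered by the fitted log2 change from the largest fall, ENSRNOG00000042717 ranked 5 and 6 in VAT of exercised and sedentary rats and 8 and 7 in SAT. Dbp ranked 7 and 7 in VAT and 9 and 24 in SAT. The SAT ranks moved with the fit. Without the atypical libraries they were 25 and 11 for ENSRNOG00000042717 and 28 and 27 for Dbp in exercised and sedentary rats, and in fits of only the compared groups they were 2 and 1, and 3 and 5. The share of tested genes with all 6 late libraries below all 6 early ones was 3.41% and 2.69% in VAT of exercised and sedentary rats and 2.27% and 2.76% in SAT. These positions describe the choice of the genes and say nothing more.

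Depth set how finely the late levels could be read. Late libraries held 98 to 382 counts of Dbp, against 2087 to 4242 in early libraries. Of ENSRNOG00000042717 they held 1 to 18 counts, against 77 to 248. The library with the lowest value, SAT late control replicate 4, had 1 count, for which counting error alone allows 0.0253 to 5.57 counts (exact 95% Poisson interval), and the highest, SAT late exercise replicate 6, had 18 counts, with an interval of 10.7 to 28.4. No library had 0 counts of either gene.

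At the early phase the libraries of a group spread more widely than counting error alone would give; differences between rats and those of library preparation cannot be told apart in this spread. The coefficient of variation of Dbp over 6 early libraries was 14.8% and 27.1% in VAT of exercised and sedentary rats and 16.2% and 23.9% in SAT, while counting alone would give 1.8% to 1.95%. For ENSRNOG00000042717 it was 31.2% and 49.2% in VAT and 32.7% and 37.1% in SAT, with 7.93% to 8.53% from counting. At the late phase Dbp varied by 11.9% to 30.8% with 6.53% to 8.78% from counting. ENSRNOG00000042717 varied by 49.3% and 27% in VAT late exercise and late control, where counting alone gives 45.5% and 40.3%. Its spread in VAT was thus not clearly larger than its counting error. In SAT it varied by 50.3% in late exercise, the group with the atypical pair, where counting alone gives 32.2%. In SAT late control it varied by 58.3%, with 44% from counting. Whether the spread in SAT exceeds counting error was not tested.

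Early libraries high in Dbp tended also to be high in ENSRNOG00000042717, shown here for the controls. In VAT of sedentary rats, early control replicates 2 and 3 had 228 and 221 CPM of Dbp and 15.3 and 16.4 CPM of ENSRNOG00000042717, while the other 4 had 118 to 165 and 5.28 to 7.94 CPM. In SAT the same-numbered libraries had 246 and 220 CPM of Dbp and 14 and 13.7 CPM of ENSRNOG00000042717, against 135 to 165 and 4.99 to 8.61 CPM in the other 4. These 2 numbers were thus the highest of their group in both genes and both depots.

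Across the 12 early libraries of a depot, as log2 deviations from the group mean, ENSRNOG00000042717 followed Dbp with Pearson's r = 0.903 in VAT (p = 0.00091, adjusted 0.00364, permutation test) and r = 0.941 in SAT (p = 0.00043, adjusted 0.00344, permutation test). Spearman's rho was 0.909 (p = 0.00074, adjusted 0.00308, permutation test) and 0.888 (p = 0.00077, adjusted 0.00308, permutation test). The tests were two-sided, with rats shuffled within their group, and p was adjusted over the 8 relations computed. Without the 2 libraries farthest from the median of Dbp, r was 0.856 in VAT (adjusted p = 0.0305, permutation test, n = 10) and 0.912 in SAT (adjusted p = 0.0305). Within the groups r was 0.88 and 0.919 in exercised and sedentary rats in VAT and 0.93 and 0.953 in SAT. Without the atypical VAT libraries r was 0.886 (adjusted p = 0.0238, permutation test, n = 10). Leaving out the 2 farthest libraries as well gave r = 0.72 in VAT, which did not pass (adjusted p = 0.246, permutation test, n = 8). Both genes of a library share its scaling factor, and the part of this in r was not tested.

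**Figure D2:**
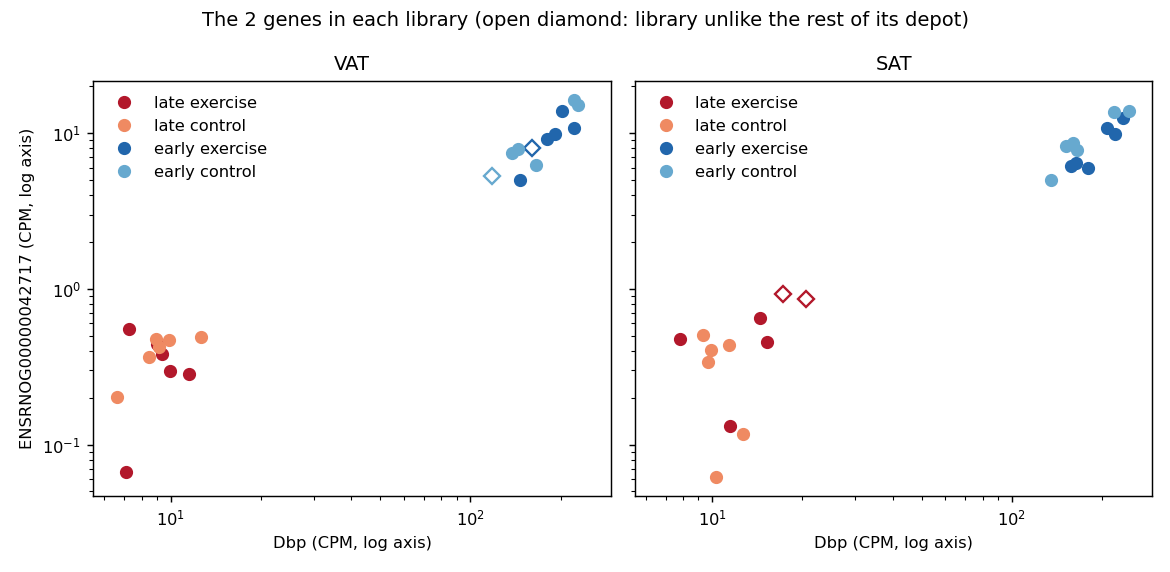
ENSRNOG00000042717 against Dbp in each library (CPM, log axes), VAT left and SAT right, colours for the 4 groups and open diamonds for the atypical libraries. Early libraries lie along a rising band, while late libraries form a loose cloud at 1 to 18 counts of ENSRNOG00000042717.

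In late libraries the relation did not pass. There r between the genes was 0.375 in VAT (adjusted p = 0.385, permutation test, n = 12) and 0.412 in SAT (adjusted p = 0.391), and with so few counts of ENSRNOG00000042717 a weak correlation is no finding. Within exercised and sedentary late rats r was 0.0501 and 0.861 in VAT and 0.639 and -0.496 in SAT. Whether r differs between late and early libraries was not tested. In SAT it was -0.0441 without the atypical pair. That pair held 20.6 and 17.3 CPM of Dbp and 0.862 and 0.925 CPM of ENSRNOG00000042717, the highest values of both genes among the 24 late libraries.

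The counts of ENSRNOG00000042717 as a percentage of those of Dbp in the same library do not depend on library scaling. This percentage averaged 3.83 ± 2.31 late and 5.08 ± 1.1 early in VAT of exercised rats, and 4.34 ± 0.781 late and 5.55 ± 1.35 early in VAT of sedentary rats (SD, n = 6 each). In SAT it averaged 4.04 ± 1.77 late and 4.37 ± 0.807 early in exercised rats, and 3.06 ± 1.91 late and 5.19 ± 0.886 early in sedentary rats. Late and early libraries overlapped in each pair. ENSRNOG00000042717 was chosen for its large late fall, so a lower late mean follows from that choice and is no finding. As the lengths of the genes were not used, the percentage compares libraries and not the levels of the genes.

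The labels describe both depots of 6 rats per group without saying that a number marks 1 rat, and the values of same-numbered libraries were therefore set side by side as a check. Over the 12 early numbers, as log2 deviations from the group mean, VAT followed SAT with r = 0.837 for Dbp (p = 0.00366, adjusted 0.00788; rho = 0.853, p = 0.00234, adjusted 0.00624; permutation tests). For ENSRNOG00000042717 r was 0.798 (p = 0.00394, adjusted 0.00788; rho = 0.706, p = 0.0173, adjusted 0.0347; permutation tests). Both values were lower when the extreme libraries were left out and the atypical ones kept. Without the 2 numbers farthest from the median in SAT, r was 0.585 for Dbp (adjusted p = 0.211, permutation test, n = 10) and 0.695 for ENSRNOG00000042717 (adjusted p = 0.0991), and the relation no longer passed. For Dbp these were early control replicates 2 and 3, and for the other gene replicates 2 and 5.

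Without the pairs that hold an atypical library, r between the depots was 0.911 for Dbp (adjusted p = 0.00512, permutation test, n = 10) and 0.792 for ENSRNOG00000042717 (adjusted p = 0.0238). Spearman's rho was 0.855 for Dbp (adjusted p = 0.0249, permutation test). For ENSRNOG00000042717 rho was 0.624 and did not pass (adjusted p = 0.125, permutation test). Leaving out the 2 farthest numbers as well gave r = 0.867 for Dbp (adjusted p = 0.0791, permutation test, n = 8) and r = 0.823 for ENSRNOG00000042717 (adjusted p = 0.13). Neither of these passed. With all libraries, r within exercised and sedentary rats was 0.51 and 0.975 for Dbp and 0.536 and 0.96 for ENSRNOG00000042717. Among 11599 genes that passed the filter in both depots and reached 5 CPM in a group, the median of this r was 0.149, and 99.2% of them lay below Dbp and 98.4% below ENSRNOG00000042717. Among late rats r between the depots was 0.238 for Dbp (adjusted p = 0.521, permutation test, n = 12) and -0.242 for ENSRNOG00000042717 (adjusted p = 0.521). Without the pairs that hold an atypical library these were 0.545 (adjusted p = 0.173, permutation test, n = 10) and 0.146 (adjusted p = 0.767).

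**Figure D3:**
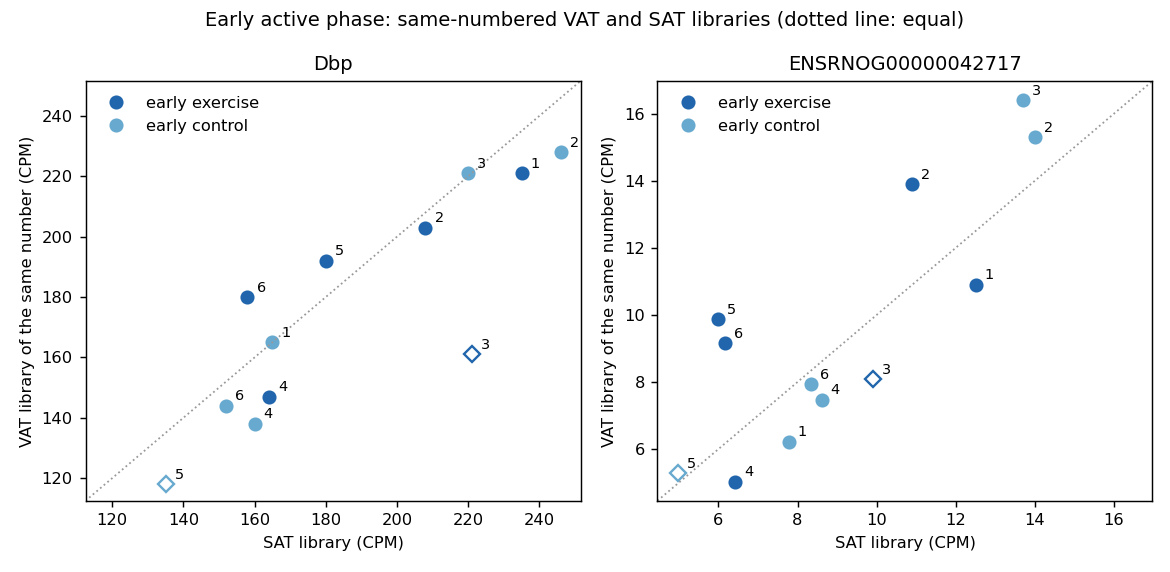
CPM in the VAT library against the SAT library of the same number for the 12 early numbers, Dbp left and ENSRNOG00000042717 right. Digits are replicate numbers, open diamonds mark pairs with an atypical VAT library and the dotted line marks equal levels. Early control replicates 2 and 3 lie at the upper right in both panels.

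Whether exercise changed the genes was read within each phase, a comparison that did not choose them. In VAT Dbp averaged 9.04 ± 1.68 CPM in late exercise and 9.26 ± 1.95 CPM in late control (SD, n = 6 each), a log2 difference of -0.035 with a 95% interval of -0.394 to 0.324 (adjusted p = 0.97, edgeR's quasi-likelihood test, which called 0% of genes here, with 1557 at an unadjusted p under 0.05; DESeq2 called 43 and limma voom 200). At the early phase it averaged 184 ± 27.2 CPM in exercise and 169 ± 45.7 CPM in control, a difference of 0.13 with an interval of -0.181 to 0.441 (adjusted p = 1). The groups overlapped at either phase. The intervals leave out a change of Dbp in VAT of as much as 1.5-fold in either direction.

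In SAT Dbp ran higher in late exercise than in late control, at 14.5 ± 4.46 and 10.6 ± 1.26 CPM (SD, n = 6 each), but did not pass the threshold. The 6 exercised libraries had 15.3, 11.5, 14.4, 20.6, 7.81 and 17.3 CPM, against 9.94, 12.7, 9.69, 10.3, 11.4 and 9.32 CPM in the controls. Of the exercised libraries 4 lay above every control, 1 lay within the controls and 1 below them all. The log2 difference was 0.45 ± 0.183 (SE), with a 95% interval of 0.07 to 0.829 and an adjusted p of 0.101 (edgeR), where 11.5% of the 14372 genes tested were called (edgeR called 1654, limma voom 298 and DESeq2 2718). Without the atypical pair, which held the 2 highest values, it was 0.21 with an interval of -0.175 to 0.597 (adjusted p = 0.554). Without late exercise replicate 5, which held the lowest value, it was 0.59 and passed (adjusted p = 0.0159).

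For ENSRNOG00000042717 in SAT the late exercise libraries held 6, 2, 9, 16, 7 and 18 counts, against 7, 2, 6, 1, 6 and 9 counts in late control. The 2 highest were again the atypical pair, and the counts of the other 4 lay within the range of the controls, although scaled to CPM replicate 3 (0.65) was above the highest control (0.508). The log2 difference was 0.90, with a 95% interval of 0.01 to 1.797 (adjusted p = 0.158, edgeR). Without the atypical pair it was 0.44, with an interval of -0.587 to 1.47 (adjusted p = 0.655). In VAT at the late phase it was -0.26, with an interval of -1.162 to 0.64 (adjusted p = 0.884), a range that holds both a fall and a rise of over 1.5-fold. In both depots the gene passed the filter on low counts through its early libraries. With the late groups alone it did not pass. Its late exercise values, and the exercise by phase values that use them, are therefore description only.

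At the early phase neither gene passed in either depot (adjusted p = 1 for each, edgeR), where edgeR called 0% of tested genes, and DESeq2 called 0 in VAT and 3 in SAT. Unadjusted p lay under 0.05 for 345 genes in VAT and for 131 in SAT. In SAT the log2 difference was 0.115 for Dbp, with a 95% interval of -0.25 to 0.48, and -0.141 for ENSRNOG00000042717, with an interval of -0.864 to 0.583. In VAT that of ENSRNOG00000042717 was -0.031, with an interval of -0.599 to 0.536. The test of a different exercise change at the late and the early phase did not pass in VAT (Dbp -0.165, adjusted p = 0.942; ENSRNOG00000042717 -0.23, adjusted p = 0.968) or in SAT (Dbp 0.33, adjusted p = 0.505; ENSRNOG00000042717 1.04, adjusted p = 0.335), with 0% of genes called by edgeR in either. At an unadjusted p under 0.05 there were 975 genes in VAT and 2411 in SAT, and DESeq2 called 2 and 184.

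**Figure D4:**
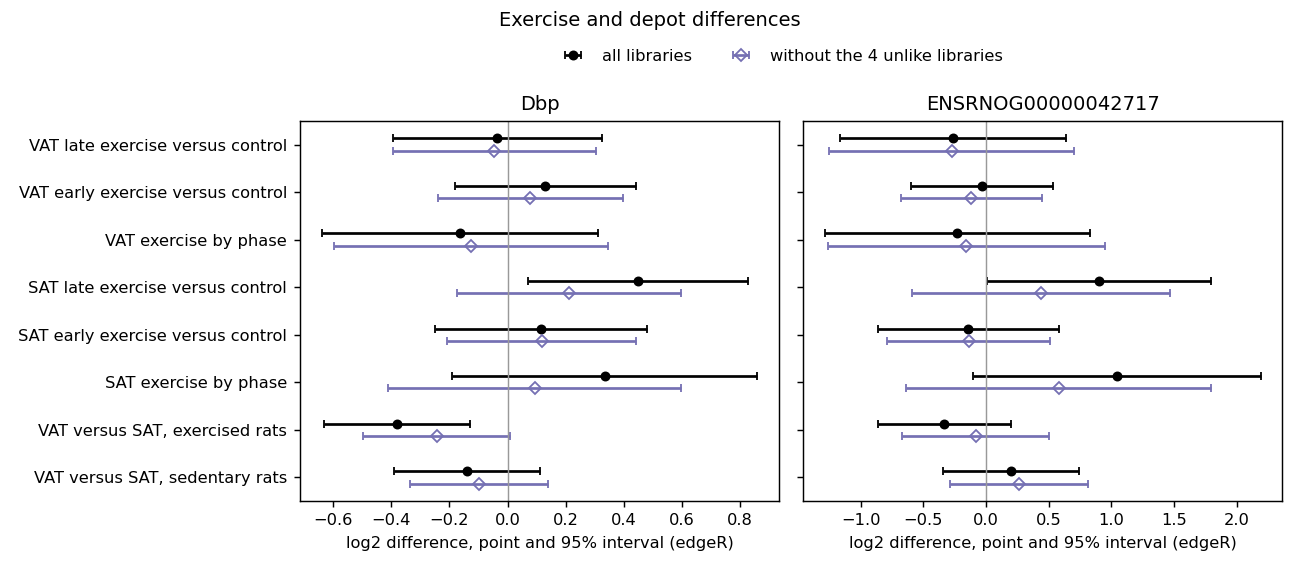
Log2 differences with 95% intervals for Dbp and ENSRNOG00000042717 in the exercise, exercise by phase and depot comparisons, with all libraries (filled) and without the 4 atypical ones (open). The SAT late exercise values lie nearer 0 without the atypical libraries for both genes, and the intervals of ENSRNOG00000042717 are the wider ones throughout.

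Between the depots Dbp differed little. Averaged over the phases in exercised rats it was lower in VAT than in SAT by a log2 difference of -0.38 ± 0.125 (SE; 95% interval -0.632 to -0.128, adjusted p = 0.0105, edgeR), where 27.4% of the 14693 genes tested were called lower in VAT. At the late phase the means were 9.04 ± 1.68 CPM in VAT and 14.5 ± 4.46 CPM in SAT, and at the early phase 184 ± 27.2 CPM in VAT and 194 ± 31.5 CPM in SAT (SD, n = 6 each). Without the atypical libraries it was -0.24 and did not pass (interval -0.496 to 0.008, adjusted p = 0.0986). In sedentary rats the difference was -0.139, with an interval of -0.391 to 0.113 (adjusted p = 0.39), where 21.7% were called lower in VAT. Dbp was lower in VAT in 10 of 12 same-numbered pairs of exercised rats and in 10 of 12 of sedentary rats, a count that 20.1% and 26.4% of tested genes reached. Whether the depot difference depends on exercise was not tested.

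ENSRNOG00000042717 did not pass between the depots. Its log2 difference, VAT minus SAT, was -0.334 in exercised rats, with a 95% interval of -0.864 to 0.197 (adjusted p = 0.295, edgeR), and 0.20 in sedentary rats, with an interval of -0.342 to 0.744 (adjusted p = 0.581). It was lower in VAT in 12 of 24 same-numbered pairs, an even split. These depot values draw in part on late libraries, which held 1 to 18 counts of the gene, and are description only. The ratio of VAT to SAT in a pair ran from 0.0716 to 2.26 in late exercise and from 0.463 to 5.94 in late control. At the early phase it ran from 0.784 to 1.65 in exercise and from 0.799 to 1.2 in control.

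By mean level over the 8 groups, Dbp ran from VAT late exercise (9.04 CPM) through VAT late control (9.26), SAT late control (10.6), SAT late exercise (14.5), VAT early control (169), SAT early control (180) and VAT early exercise (184) to SAT early exercise (194). Neighbours in this order lay within their spread of each other, except at the step between the late and the early groups. ENSRNOG00000042717 ran from SAT late control (0.311 CPM) through VAT late exercise (0.337), VAT late control (0.405), SAT late exercise (0.583), SAT early exercise (8.65), VAT early exercise (9.5) and SAT early control (9.56) to VAT early control (9.76). Here too the one step beyond the spread was that between the phases, and within each phase the order of the groups differed from that of Dbp.

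The genes most like each in pattern were sought over the 8 group means of log2(CPM + 2), centred on each gene's own mean, by the root mean square difference among 11598 other genes. Nearest to Dbp was ENSRNOG00000009329, at 0.124 log2 units, where the median gene lay at 1.95. That gene stood at 2.85 CPM in late and 81.7 CPM in early exercise in VAT, and at 3.47 and 86.6 CPM in SAT. ENSRNOG00000042717 itself was the gene ranked 5 by nearness to Dbp, at 0.847, since the 2 added to each CPM flattens the pattern of a gene with few counts. From the other side, Dbp ranked only 184 by nearness to ENSRNOG00000042717, at the same distance. The nearest mirror image of Dbp was ENSRNOG00000013408, at 0.145, with 82.1 CPM in late and 2.69 CPM in early exercise in VAT.

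Nearest to ENSRNOG00000042717 on this scale was ENSRNOG00000007387, at 0.165 log2 units, where the median gene lay at 1.11. It stood at 25.9 CPM in late and 102 CPM in early exercise in VAT, and at 30.2 and 104 CPM in SAT. The nearest mirror image of ENSRNOG00000042717 was ENSRNOG00000021086, at 0.276, with 42 CPM in late and 9.11 CPM in early exercise in VAT. This mirror gene was not kept when genes were ranked by the largest difference instead. Likeness here follows the phases and is a description of 8 means, and the table pairs none of these IDs with a symbol.

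**Figure D5:**
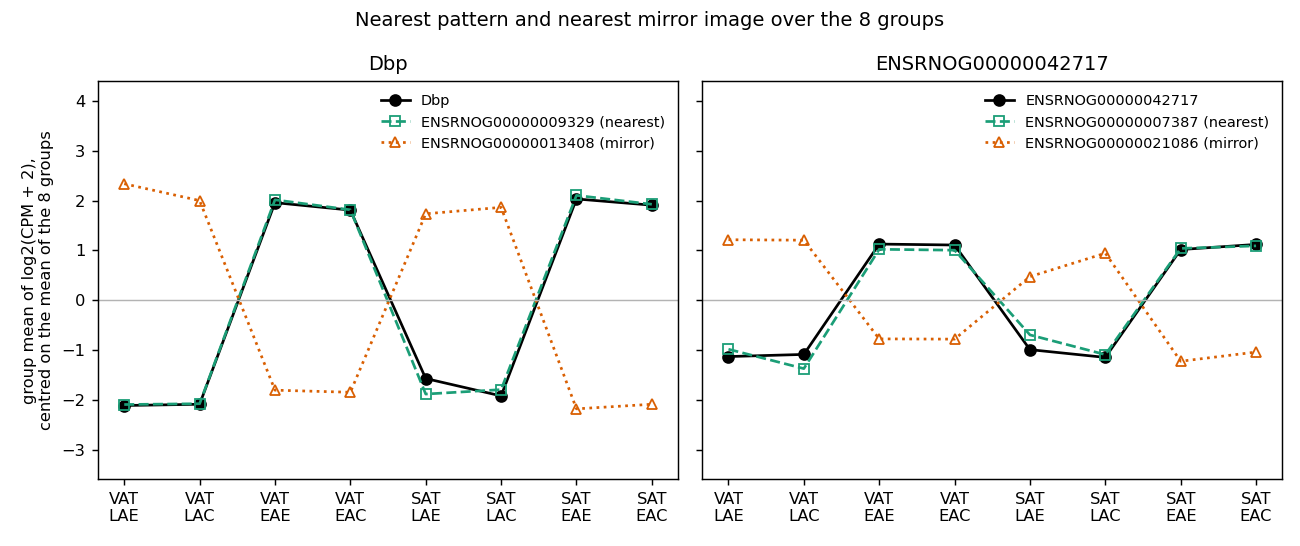
Group means of log2(CPM + 2), centred on the mean of the 8 groups, for Dbp (left) and ENSRNOG00000042717 (right), each with its nearest gene (squares) and its nearest mirror image (triangles). Late and early groups lie on opposite sides of 0 for every gene drawn, and Dbp and its nearest gene differ by at most 0.312.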

How the data were processed

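The authors deposited estimated counts per Ensembl gene ID, already whole numbers. Salmon 1.4.0 and the build rn6 are named per the submitters' processing notes; the annotation release is not given in the sources used here. Per the labels' protocols, reads were single-end, 50 nt long and made from polyA RNA of an integrity number over 9. Columns were matched to samples by library name, and 0 lacked a sample.

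Counts were rounded and tested over all genes with edgeR 4.0.16 (R 4.3.3): TMM scaling, the filterByExpr filter, the quasi-likelihood test and Benjamini-Hochberg adjustment at 0.05. One model held the 4 groups of SAT (14372 genes), one those of VAT (13883 genes) and one all 8 groups (14693 genes). Intervals are 95%. Standard errors are the log2 change over the square root of F. Relations used log2 CPM with 2 added and 100000 permutations. The fits were tested on simulated counts. Alternatives were DESeq2 1.42.0, limma 3.58.1 voom, another scaling, no filter, fewer groups, a replicate block and leaving out libraries; leaving out the atypical libraries (over 5 median absolute deviations below their depot) was added after seeing the data. Poisson intervals cover counting error only.

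The genes and lists were chosen with earlier results of these data known. Clock and cell type lists needed symbols and were not analysed here. For each gene the nearest and the mirror gene were named, of the 6 nearest and 3 mirror genes sought.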

Additional observations from a re-analysis of the deposited data

How the results depend on the processing

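The phase falls kept their direction under every alternative tried. One moved by more than the spread between replicates: ENSRNOG00000042717 in SAT of exercised rats had a log2 change of -4.324 without the atypical libraries. Leaving out single libraries, the falls of Dbp lay between -4.438 and -4.299 (exercised) and -4.296 and -4.088 (sedentary) in VAT and between -3.88 and -3.615 and between -4.157 and -3.98 in SAT.

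The lower Dbp in VAT than in SAT of exercised rats was lost with limma voom (-0.22, adjusted p = 0.223) and without the atypical libraries (-0.244, adjusted p = 0.0986), and held with DESeq2 (adjusted p = 0.00816) and without any single library (-0.442 to -0.319, adjusted p of 0.00181 to 0.03). The higher Dbp level in SAT late exercise than in late control passed in 1 of 12 fits without a library (0.322 to 0.59, adjusted p of 0.0159 to 0.286) and in none of the other fits. Signs of uncalled differences turned for ENSRNOG00000042717 in VAT early exercise (0.069 with limma voom, 0.032 with the replicate block, -0.169 to 0.174 without single libraries) and in VAT against SAT of exercised rats (0.105 with limma voom), and for Dbp in VAT late exercise (-0.114 to 0.067 without single libraries); the causes were not tested.

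The early relation between depots fell to r = 0.585 for Dbp and 0.695 for ENSRNOG00000042717 without the 2 extreme numbers. Late relations turned for Dbp between depots (-0.0791 without the 2 extreme numbers, but 0.545 without atypical libraries), for ENSRNOG00000042717 between depots (0.146 without atypical libraries) and between the genes in SAT (-0.0441 without atypical libraries).

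Deviations of same-numbered libraries correlated between the depots at -0.175 to 0.341 across 10954 genes, with a median of 0.176 and over 0.1 in 17 of 24 pairs. These values do not settle whether a number marks 1 rat. The main fits did not pair samples by number, so their depot tests treat the depots of a rat as independent. With the replicate block Dbp in VAT against SAT of exercised rats was -0.36 (adjusted p = 0.00141, edgeR), and no call changed. Ranking by the largest difference in place of the root mean square kept 5 of the 6 nearest genes of either gene and 0 of the 3 mirror genes of ENSRNOG00000042717. In fits of the late groups alone of 1 depot, ENSRNOG00000042717 did not pass the filter on low counts, and DESeq2 gave it no adjusted p in VAT late exercise. Counts of 1 to 18 limit what can be said of its late level.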
